A study of Mus musculus with 44 samples.

Results

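The cytochrome P450 family 2 genes of the mouse were examined in diet-induced non-alcoholic steatohepatitis (NASH). Members were all genes of the deposited count table whose symbol is Cyp2 followed by a letter and a number, which gave 47 of the 20105 rows counted. They fall into subfamilies by letter, with 15 Cyp2c, 8 Cyp2d, 7 Cyp2j, 5 Cyp2b and 4 Cyp2a genes, and 1 gene in each of the subfamilies e, f, g, r, s, t, u and w. The measurement was RNA sequencing of nuclei from the livers of 22 male HEP-INTACT mice, whose hepatocyte nuclei are tagged so that they can be precipitated. Each mouse gave 2 libraries, 1 from the precipitated hepatocyte nuclei and 1 from unsorted liver nuclei (called whole liver here), which makes 44 libraries.

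In the FPC study there were 3 mice with advanced NASH and 4 with mild NASH after 20 weeks of the FPC diet, and 4 controls on a low-fat diet for the same period. In the CDAHFD study there were 3 mice with advanced NASH and 4 with mild NASH after 7 weeks of the choline-deficient diet CDAHFD, and 4 low-fat controls of the same period. All mice were male and carried the nuclear tag; the promoter that drives it and the age of the mice are not given in the sources used here. Mild and advanced disease were assigned by histology of the liver and not at random, with marked fibrosis only in the advanced groups. The diets were tested in separate studies of unequal length, so diet, time and study cannot be told apart.

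Family 2 enzymes are heme proteins of the endoplasmic reticulum that oxidise drugs, solvents, steroids and fatty acids with electrons passed on by the P450 reductase Por. In liver most of them are made by hepatocytes, many mainly around the central vein, and their transcription depends on liver factors such as Hnf4a and on the drug-sensing receptor CAR, the product of Nr1i3. In mice several members differ between the sexes, under control of the pattern of growth hormone release and of Stat5b. Inflammation is known to lower the transcripts of many P450 genes in liver.

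Library totals ran between 12.1 M and 33.1 M counts, with a median of 22.8 M, and levels are given as CPM, a gene's counts scaled to a common library total of 1e+06. The 10 hepatocyte markers listed summed on average to 14690 CPM in FPC control, 8774 in FPC mild and 8691 in FPC advanced hepatocyte libraries. No marker was at 0. In CDAHFD the sums in the same order were 15250, 10300 and 10460 CPM. Whole liver libraries had 14210, 7268 and 6741 CPM in FPC and 15190, 6889 and 6494 CPM in CDAHFD. These sums hardly differed between fractions in controls, so they do not check the hepatocyte label there. The 8 endothelial markers summed to 61.6, 158 and 91.7 CPM in FPC control, mild and advanced hepatocyte libraries, against 687, 908 and 885 CPM in whole liver. Markers of other cells also moved with disease inside the hepatocyte libraries: the 7 cholangiocyte markers summed to 1296 CPM in FPC advanced (943.8 at the lowest) against 115 CPM in control, and to 443 CPM in CDAHFD advanced against 118.5 CPM in control. In whole liver the cholangiocyte sums were 1076 CPM in FPC advanced against 134 CPM in control, and 572 against 144.5 CPM in CDAHFD. Unlike the endothelial sum, that of FPC advanced mice was thus not lower in hepatocyte than in whole liver libraries. In hepatocyte libraries the 6 markers of recruited macrophages summed to 114 against 4.87 CPM in FPC and to 107.5 against 6.70 CPM in CDAHFD. Trem2 was at 0 in all FPC control hepatocyte libraries. The part these shifts play in any result below was not tested. In such bulk libraries, fewer cells of a type and less RNA per cell cannot be told apart.

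Some libraries stood apart. Hepatocyte library Control_9862 of a CDAHFD control had very high levels of a Cyp2c gene cluster, and over all genes it matched the whole liver library labelled Control_9867, while hepatocyte library Control_9867 matched whole liver library Control_9862. Their correlations of deviations from group means were 0.86 and 0.77 across genes crosswise, and -0.23 and -0.30 with their own numbers. For 20 of the 22 hepatocyte libraries the best match carried the same animal number. Both mice are controls of the same study, so comparisons between stages do not depend on which number is right. Hepatocyte libraries Control_10113 and Control_10110 (CDAHFD controls), Advanced_6880 (FPC advanced) and Control_6816 (FPC control) also stood apart in particular members. Fitted values without them are given beside some of the results in which they stood apart, and not beside all.

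In control hepatocyte nuclei the family took 0.745% ± 0.0532 of all counts in the FPC study and 0.629% ± 0.209 in the CDAHFD study (SD, n = 4 each). In mild disease this share was 0.622% ± 0.0747 in FPC and 0.77% ± 0.0338 in CDAHFD (SD, n = 4 each). In advanced disease it was 0.378% ± 0.0771 in FPC and 0.481% ± 0.133 in CDAHFD (SD, n = 3 each). No test was run on these shares. In FPC hepatocytes 10 members averaged at least 100 CPM in advanced disease and 18 in controls, while in CDAHFD the numbers were 10 and 12.

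Per kilobase of counted length, Cyp2e1, the enzyme that oxidises ethanol and paracetamol, led the family in both studies, with 36.5 ± 11.4 CPM per kb in FPC advanced hepatocytes against 163 ± 36.2 in control. Second in controls came Cyp2d9, a male-biased steroid hydroxylase, with 78.1 ± 20.4 CPM per kb in FPC and 112 ± 37.9 in CDAHFD, followed by Cyp2d26 with 55.5 ± 9.50 and 62.4 ± 12.02. Cyp2j5, an arachidonic acid epoxygenase, had 45.5 ± 5.81 CPM per kb in FPC controls and Cyp2d10 had 40.1 ± 9.22 there, which is within their spread. In advanced disease Cyp2d26 stood beside Cyp2e1: 35.5 ± 5.94 against 36.5 CPM per kb in FPC and 67.0 ± 12.9 against 70.0 ± 18.9 in CDAHFD. Cyp2d9 had dropped to 10 ± 3.58 CPM per kb in FPC advanced and 14.7 ± 4.53 in CDAHFD advanced hepatocytes.

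Advanced disease was compared with control to see which family members change in hepatocytes. In FPC, 38 of the 47 members passed the filter on low counts and 20 of them were called lower at an adjusted p under 0.05, where 20.4% of the 13498 genes tested were lower. Another 3 were called higher, where 26.5% of all genes tested were higher. The median log2 fold change was -0.83 over the tested members and 0.00 over all genes. In CDAHFD 36 members passed the filter, of which 19 were called lower beside 29.2% of the 13277 genes tested, and 8 were called higher beside 30.3%. The median was -1.11 over the members and -0.00 over all genes. The filter keeps a member that is high in any of the groups, so these counts describe the members that passed and no more.

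**Figure D1:**
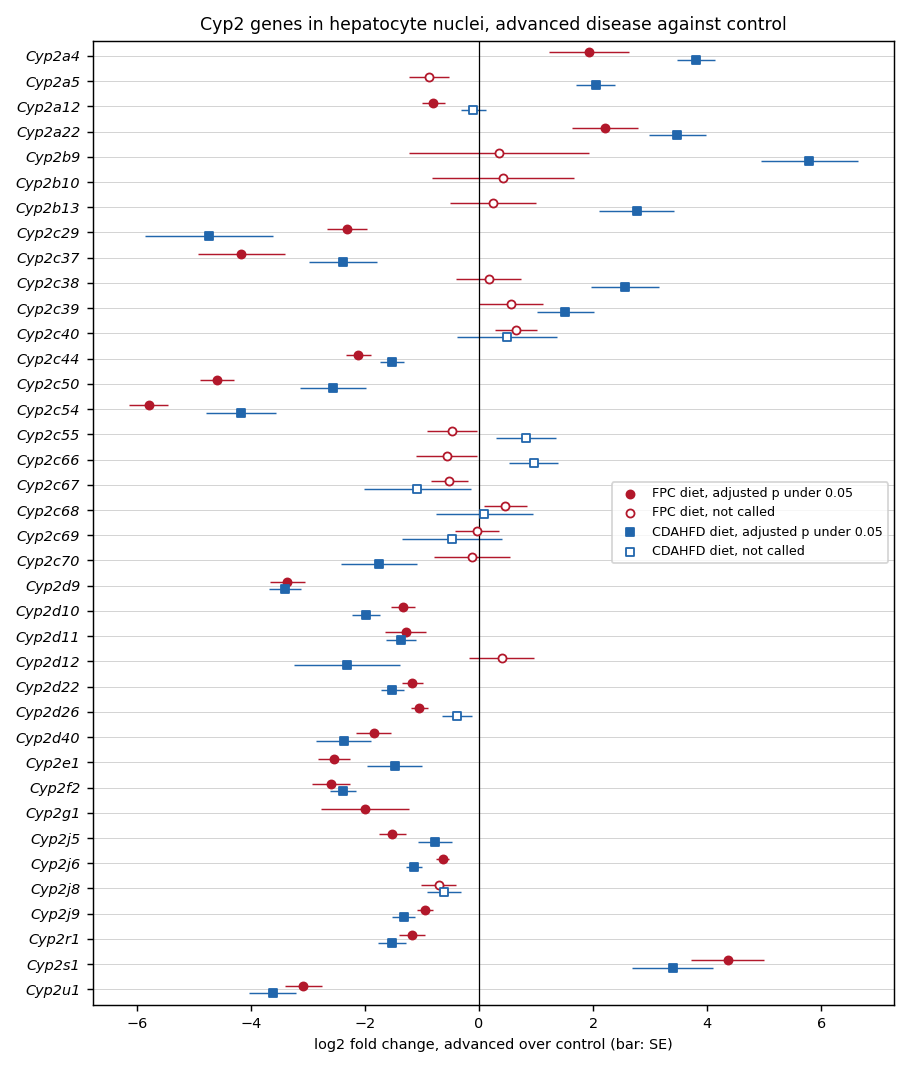
Log2 fold change of each tested member in hepatocyte nuclei, advanced over control, with its standard error; circles are the FPC and squares the CDAHFD study, filled where the adjusted p is under 0.05. Called members lie below 0 in most subfamilies, down to -5.79 for Cyp2c54 in FPC, and called rises, up to 5.79 for Cyp2b9 in CDAHFD, were Cyp2a4, Cyp2a5, Cyp2a22, Cyp2b9, Cyp2b13, Cyp2c38, Cyp2c39 and Cyp2s1; Cyp2a12 was called below 0 in FPC.

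The studies have separate controls, so their calls can be set side by side. Of the lower calls, 17 were shared, which is 89.5% of those of CDAHFD and 85% of those of FPC. Over all genes, the lower calls of both studies were 52.1% of those of CDAHFD and 73.1% of those of FPC. They were Cyp2c29, Cyp2c37, Cyp2c44, Cyp2c50, Cyp2c54, Cyp2d9, Cyp2d10, Cyp2d11, Cyp2d22, Cyp2d40, Cyp2e1, Cyp2f2, Cyp2j5, Cyp2j6, Cyp2j9, Cyp2r1 and Cyp2u1. Higher in both were Cyp2a4, Cyp2a22 and Cyp2s1. Called higher in CDAHFD and not in FPC were Cyp2a5, Cyp2b9, Cyp2b13, Cyp2c38 and Cyp2c39, and no member was called in opposite directions in advanced disease. Leaving out each library in turn, 20 of the 23 FPC calls and 22 of the 27 CDAHFD calls held every time.

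Scaling bears on these numbers. The fold changes use edgeR's trimmed-mean scaling, and ratios of plain CPM come out higher than the fitted values by 0.40 (log2) in FPC advanced and 0.49 in CDAHFD advanced hepatocytes. CPM values therefore show falls as smaller and rises as greater than the fitted fold changes beside them.

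By fitted fold change the deepest falls were in Cyp2c genes that respond to CAR: Cyp2c54, Cyp2c50 and Cyp2c37 in FPC, and Cyp2c29 and Cyp2c54 in CDAHFD. In CDAHFD this order leans on single high controls, mouse Control_10113 for Cyp2c29 and mouse Control_10110 for Cyp2c54. Whether the order holds without those mice is not given here. Cyp2u1 and Cyp2d9 fell more than Cyp2c50 and Cyp2c37 in CDAHFD, and more than Cyp2c29 in FPC. Cyp2c37, Cyp2c54 and Cyp2c50 follow each other on chromosome 19. Cyp2c54, at chr19:40037939-40073845 on GRCm38.p6 (RefSeq), had 2.45, 5.10 and 4.39 CPM in FPC advanced hepatocytes, against 160, 187, 164 and 143 CPM in controls. The groups do not overlap, and the control values lie close together. The log2 fold change was -5.79 ± 0.34 (SE), with an edgeR adjusted p of 3.66e-08. In CDAHFD, Cyp2c54 had 9.57, 3.13 and 5.61 CPM in advanced disease against 44.6, 55.6, 170 and 46.7 CPM in controls, with a log2 fold change of -4.17 ± 0.61 (edgeR adjusted p = 0.000172). Mouse Control_10110 was high, and the groups stay apart without it.

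Cyp2c50 had 10.03, 7.74 and 6.42 CPM in FPC advanced hepatocytes against 152, 148.5, 149.9 and 148 CPM in controls. All 4 controls sat within a few CPM of each other, and the fall was 4.60 on the log2 scale, a fold change of -4.60 ± 0.30 (edgeR adjusted p = 9.97e-08). CDAHFD hepatocytes had 28.6, 6.92 and 11.9 CPM against 51.4, 50.8, 126 and 40.6 CPM, with a fold change of -2.56 ± 0.58 (edgeR adjusted p = 0.00297). Cyp2c37 had 2.52, 4.26 and 1.69 CPM in FPC advanced hepatocytes against 57.9, 30.4, 44.3 and 21.7 CPM in controls. Its groups do not overlap in FPC, where the fold change was -4.17 ± 0.76 (edgeR adjusted p = 0.00104), and overlap slightly in CDAHFD, where it was -2.39 ± 0.60 (edgeR adjusted p = 0.00509). The coding sequences of these 3 genes are 95.1% to 96.1% identical, so reads may be shared among them. Summed as 1 gene they had a log2 fold change of -4.96 ± 0.32 in FPC (edgeR adjusted p = 7.54e-08) and -3.09 ± 0.59 in CDAHFD (edgeR adjusted p = 0.00106).

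Cyp2c29, a pericentral arachidonic acid epoxygenase that CAR also induces, had 134, 82.8 and 107.5 CPM in FPC advanced hepatocytes against 417, 398, 335 and 493 CPM in controls. The fold change there was -2.32 ± 0.35 (edgeR adjusted p = 0.00017). In CDAHFD it had 34.3, 1.81 and 7.16 CPM against 96.1, 136.5, 176 and 668 CPM, with a fold change of -4.73 ± 1.12 (edgeR adjusted p = 0.00395). Both groups spread widely: mouse Control_10113 was several times above the other controls, and mouse Advanced_9845 above the other advanced mice. Cyp2c44, another epoxygenase, fell more evenly, with 87.7, 111 and 129.9 CPM in FPC advanced against 361, 363, 416 and 297 CPM in control hepatocytes, and fold changes of -2.12 ± 0.22 in FPC and -1.52 ± 0.21 in CDAHFD (edgeR adjusted p = 5.8e-06 and 7.86e-05).

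Cyp2e1 marks hepatocytes around the central vein. It had 485, 474 and 260.0 CPM in FPC advanced hepatocytes, against 2105, 1804, 2120 and 1257 CPM in controls. The groups lie far apart, and the fold change was -2.55 ± 0.28 (edgeR adjusted p = 8.12e-06). In CDAHFD it had 709, 614 and 1017 CPM in advanced disease against 2389, 1826, 1700 and 328 CPM in controls. Here mouse Control_10113 lay below all advanced mice, the same mouse that was highest in Cyp2c29. The fold change was -1.48 ± 0.48 (edgeR adjusted p = 0.0201), and the call was lost without library Advanced_9845 (-1.43, edgeR adjusted p = 0.0612), without library Advanced_9896 (-1.32, 0.076) and under total-count scaling (-1.0, 0.0863).

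Cyp2f2, which oxidises naphthalene and marks periportal hepatocytes, fell as well. It had 52.4, 64.1 and 69.3 CPM in FPC advanced hepatocytes against 239, 338, 199.7 and 348 CPM in controls, and 40.6, 53.9 and 80.5 CPM in CDAHFD advanced against 211, 222, 235.5 and 195 CPM in controls. The fold changes were -2.60 ± 0.33 in FPC and -2.38 ± 0.23 in CDAHFD (edgeR adjusted p = 3.61e-05 and 5.86e-06), and no library of one group reached into the other. Of the 6 pericentral members listed, 5 fell in each study, beside 20.4% and 29.2% of all genes (medians -3.36 in FPC and -2.48 in CDAHFD), and the exception, Cyp2a5, is described below. The 5 were Cyp2e1, Cyp2c29, Cyp2c37, Cyp2c50 and Cyp2c54. All but Cyp2e1 are also on the CAR-responsive list below, and Cyp2c37, Cyp2c50 and Cyp2c54 may share reads. 

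**Figure D2:**
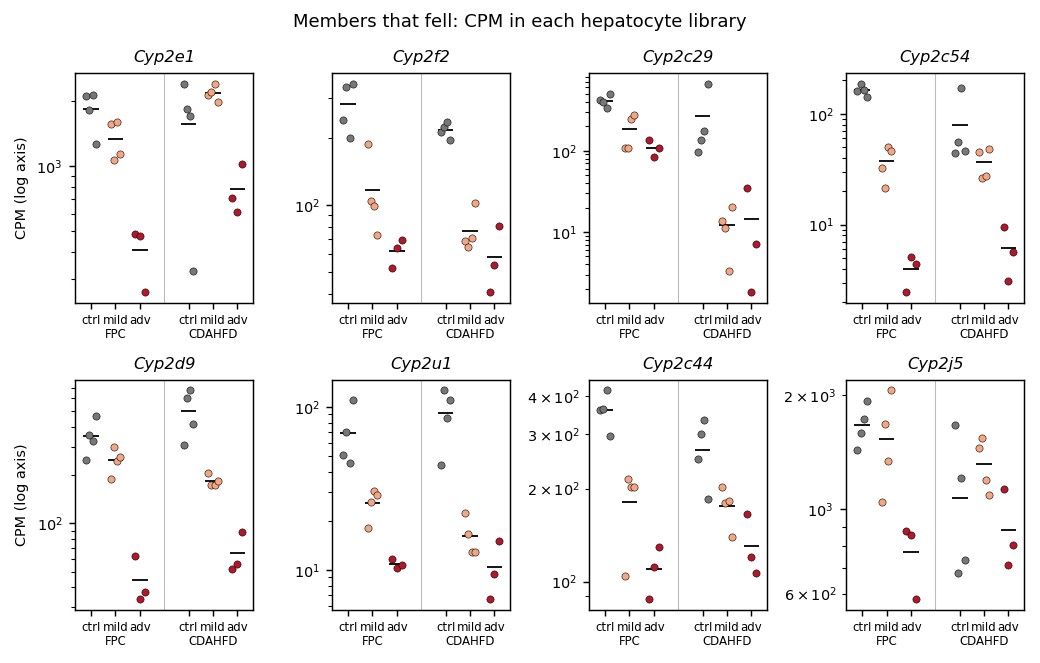
CPM on a log axis for 8 members in every hepatocyte library, by stage (control, mild, advanced) within each study; points are mice and lines group means. In Cyp2c54, Cyp2d9 and Cyp2u1 the advanced mice of both studies sit below every control; Cyp2e1 and Cyp2j5 overlap in CDAHFD.

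In the Cyp2d subfamily 6 of 7 tested members fell in each study, beside 20.4% of all genes in FPC and 29.2% in CDAHFD, with medians of -1.29 and -1.98. Cyp2d9 fell most, to 62.8, 33.7 and 37.1 CPM in FPC advanced hepatocytes against 247, 353, 324 and 466 CPM in controls. The CDAHFD values were 51.9, 55.8 and 88.6 CPM against 305, 604, 671 and 413 CPM. The fold changes, -3.36 ± 0.31 and -3.41 ± 0.28 (edgeR adjusted p = 2e-06 and 2.24e-06), differ by less than their errors. Cyp2d10, Cyp2d11, Cyp2d22 and Cyp2d40 fell in both studies, with fold changes between -1.17 and -2.37; Cyp2d11 in FPC was -0.88 (0.0586) under total-count scaling. The coding sequences of Cyp2d9, Cyp2d10 and Cyp2d11 are 92.5% to 94.7% identical, so how reads were divided among them is uncertain. Cyp2d26 fell in FPC (-1.05 ± 0.15, edgeR adjusted p = 7.15e-05); in CDAHFD it was -0.39 ± 0.26 and not called.

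The fatty acid hydroxylase Cyp2u1, which with Cyp2d9 made up the male-biased list, had 11.7, 10.3 and 10.7 CPM in FPC advanced hepatocytes against 50.3, 69.9, 45.4 and 110 CPM in controls. The 3 advanced values were nearly equal. In CDAHFD it had 6.61, 9.39 and 15.01 CPM against 43.8, 126, 84.8 and 111 CPM, and the fold changes were -3.08 ± 0.33 in FPC and -3.62 ± 0.41 in CDAHFD (edgeR adjusted p = 8.52e-06 and 2.32e-05). Cyp2r1, a vitamin D hydroxylase, had 23.6, 11.4 and 22.3 CPM in FPC advanced hepatocytes against 32.4, 29.5, 38.4 and 31.9 CPM in controls. It fell by 1.17 in FPC and by 1.53 in CDAHFD on the log2 scale (SE 0.23 and 0.24; edgeR adjusted p = 0.000983 and 0.000192).

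Among the Cyp2j epoxygenases, Cyp2j5 had 880, 857 and 580.4 CPM in FPC advanced hepatocytes against 1430, 1587, 1733 and 1930 CPM in controls. The groups do not overlap, with a fold change of -1.52 ± 0.24 (edgeR adjusted p = 0.00021). CDAHFD hepatocytes had 1129, 714 and 807.5 CPM against 1662, 682, 1206 and 734 CPM, which overlap widely. The CDAHFD call of -0.77 ± 0.30 (edgeR adjusted p = 0.0447) was lost without mouse Control_9862 (-0.48, 0.118), without mouse Control_10110 (-0.72, 0.086), without mouse Advanced_9896 (-0.62, 0.155), without mouse Advanced_10104 (-0.71, 0.119) and under total-count scaling (-0.28, 0.431). Cyp2j6 (-0.64 in FPC and -1.14 in CDAHFD) and Cyp2j9 (-0.95 and -1.32) fell in both studies, except that Cyp2j6 in FPC was -0.24 (0.101) under total-count scaling. Cyp2j8 was not called in either (-0.71 ± 0.30 and -0.61 ± 0.30).

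The members that rose came mainly from the Cyp2a and Cyp2b clusters on chromosome 7. Both clusters hold female-biased genes with close copies, and their promoters are shown because the members of 2 pairs with nearly the same promoter all rose in CDAHFD. In FPC only Cyp2a4 of these 4 was called in advanced disease. Cyp2b9 and Cyp2b13, at chr7:26173159-26173458 and chr7:26061245-26061544 of GRCm38.p6 (plus strand, RefSeq), are 99.3% identical over the 300 bases around the start. Capitals mark the 2 bases that differ.

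Cyp2b9: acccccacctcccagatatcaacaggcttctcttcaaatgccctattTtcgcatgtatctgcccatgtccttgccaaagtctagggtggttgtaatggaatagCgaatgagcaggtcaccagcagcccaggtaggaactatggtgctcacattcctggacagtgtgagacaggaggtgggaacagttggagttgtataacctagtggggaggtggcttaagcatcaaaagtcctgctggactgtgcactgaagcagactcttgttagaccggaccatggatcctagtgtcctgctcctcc
Cyp2b13: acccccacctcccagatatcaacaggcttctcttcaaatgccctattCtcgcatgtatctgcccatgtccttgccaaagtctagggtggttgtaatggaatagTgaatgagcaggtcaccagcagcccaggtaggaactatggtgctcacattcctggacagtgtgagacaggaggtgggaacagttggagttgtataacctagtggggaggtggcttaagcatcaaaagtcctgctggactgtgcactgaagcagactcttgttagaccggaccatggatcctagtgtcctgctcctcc

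The promoters of Cyp2a4 and Cyp2a5, at chr7:26306942-26307241 and chr7:26835089-26835388 (plus strand), are 97.7% identical, and their coding sequences 98.4%. Capitals mark the 5 substituted bases and the 2 bases without a partner.

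Cyp2a4: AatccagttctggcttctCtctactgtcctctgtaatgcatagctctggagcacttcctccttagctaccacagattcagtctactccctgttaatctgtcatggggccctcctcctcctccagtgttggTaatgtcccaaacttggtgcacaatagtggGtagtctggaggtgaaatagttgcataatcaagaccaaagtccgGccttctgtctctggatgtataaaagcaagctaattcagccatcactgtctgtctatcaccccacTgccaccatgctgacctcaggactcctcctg
Cyp2a5: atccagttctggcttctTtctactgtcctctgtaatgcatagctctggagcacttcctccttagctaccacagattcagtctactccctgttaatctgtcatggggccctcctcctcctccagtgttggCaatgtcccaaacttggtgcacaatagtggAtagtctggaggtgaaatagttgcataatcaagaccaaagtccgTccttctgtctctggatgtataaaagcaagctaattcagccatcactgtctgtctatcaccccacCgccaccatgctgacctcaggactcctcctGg

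In CDAHFD hepatocytes Cyp2b9 had 350, 230 and 122 CPM in advanced disease against 5.26, 0.390, 3.05 and 3.28 CPM in controls. The lowest advanced mouse stood well above the highest control, and the fold change was 5.79 ± 0.85 (edgeR adjusted p = 0.00018). In FPC it had 4.64, 234 and 47.9 CPM in advanced disease against 184, 37.1, 2.33 and 0.987 CPM in controls. Here mice of the same group differed by more than the groups did, and the fold change was 0.35 ± 1.58 (edgeR adjusted p = 0.879). It ran between -1.47 and 2.39 when libraries were left out in turn. Cyp2b13 followed the same pattern at a lower level, with 20.9, 12.5 and 6.02 CPM against 2.03, 0.780, 1.02 and 1.60 CPM in CDAHFD (2.76 ± 0.65, edgeR adjusted p = 0.0035) and 0.24 ± 0.75 in FPC, not called. Their coding sequences are 92.7% identical. A pseudogene, Rnf170-ps, overlaps Cyp2b13 over 3960 bases, and its part in the counts was not tested.

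Cyp2b10, the standard target of CAR, was not called. It had 0.686, 16.7 and 2.41 CPM in FPC advanced hepatocytes against 12.5, 0.579, 0.513 and 0.901 CPM in controls, where mice Advanced_6880 and Control_6816 each stood alone. The fold change was 0.42 (edgeR adjusted p = 0.814), with a range of -1.63 to 2.81 when libraries were left out. In CDAHFD its level was at most 0.494 CPM in any hepatocyte library, and it did not pass the filter.

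Cyp2a4, a female-biased steroid hydroxylase, had 32.8, 76.3 and 62.6 CPM in CDAHFD advanced hepatocytes against 1.67, 3.19, 3.33 and 3.43 CPM in controls. The fold change of 3.80 ± 0.34 (edgeR adjusted p = 3.87e-06) rests on groups far apart. In FPC it had 8.59, 152 and 42.1 CPM against 14.9, 20.1, 12.2 and 5.45 CPM. The FPC call of 1.92 ± 0.70 (edgeR adjusted p = 0.0429) fell to 0.55 (0.445) without mouse Advanced_6880, and was also lost without mice Control_6816 (1.97, 0.0739), Control_6952 (1.89, 0.0762) and Control_6953 (1.68, 0.0859) and without mouse Advanced_6904 (2.16, 0.0505).

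Cyp2a5, a pericentral coumarin hydroxylase, went up in CDAHFD, with 108, 306 and 210.5 CPM in advanced disease against 18.9, 47.6, 39.4 and 38.1 CPM in controls (2.04 ± 0.35, edgeR adjusted p = 0.000451). In FPC it had 45.4, 145.5 and 113 CPM against 162, 196, 125 and 71.8 CPM, which overlap (-0.87 ± 0.35, edgeR adjusted p = 0.0576). Summed as 1 gene, Cyp2a4 and Cyp2a5 had a fold change of 2.28 ± 0.35 in CDAHFD (edgeR adjusted p = 0.000187) and -0.27 ± 0.44 in FPC (edgeR adjusted p = 0.649). The summed pair was thus called in CDAHFD and not in FPC.

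Cyp2a22 had 49.7, 28.4 and 50.4 CPM in CDAHFD advanced hepatocytes against 2.95, 2.16, 3.39 and 2.60 CPM in controls (3.47 ± 0.50, edgeR adjusted p = 0.00013). In FPC it had 17.0, 72.6 and 15.02 CPM against 9.34, 6.75, 3.15 and 3.26 CPM (2.21 ± 0.58, edgeR adjusted p = 0.00874), and 1.16 (0.0615) without mouse Advanced_6880. Its coding sequence is 97.0% identical to that of the more abundant Cyp2a12. A pseudogene, LOC115486453, overlaps Cyp2a22 over 4033 bases, and a noncoding RNA gene, Gm51444, overlaps Cyp2a12 over 3022 bases. The part of these overlaps in the counts was not tested. Cyp2a12 had 86.2, 104 and 65.8 CPM in FPC advanced hepatocytes against 94.3, 156, 84.4 and 112.5 CPM in controls, a fold change of -0.80 ± 0.20 (edgeR adjusted p = 0.00616) that was -0.39 (0.118) under total-count scaling. Summed, Cyp2a12 and Cyp2a22 were not called in either study (-0.38 ± 0.24 in FPC and 0.29 ± 0.24 in CDAHFD).

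**Figure D3:**
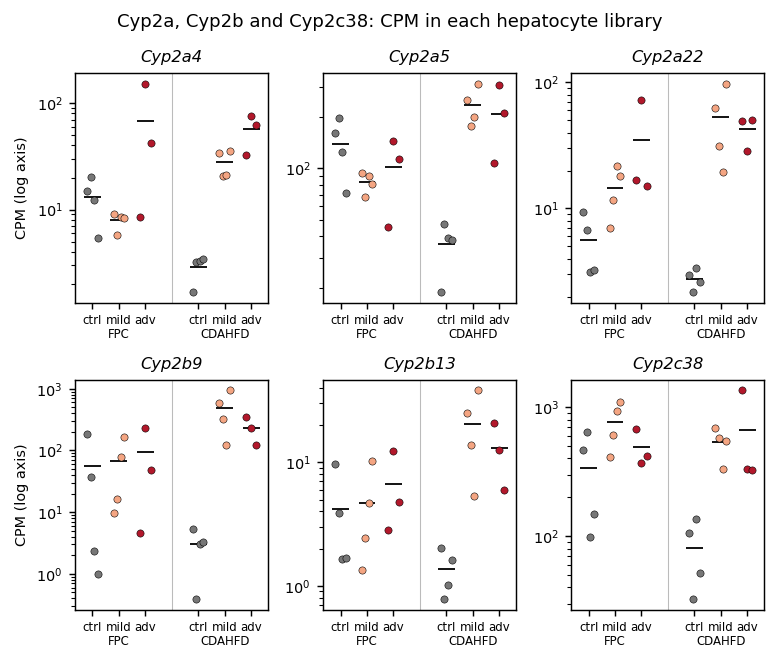
CPM on a log axis for 6 members in every hepatocyte library, by stage within each study; points are mice and lines group means. In CDAHFD all mild and advanced mice sit above all controls in each panel, while in FPC mice of the same stage spread widely, most of all in Cyp2b9.

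Cyp2c38 also rose in CDAHFD, with 1345, 334 and 326 CPM in advanced disease against 105, 32.5, 136 and 52.0 CPM in controls (2.56 ± 0.60, edgeR adjusted p = 0.00363). Its FPC value was 0.17 ± 0.57, not called. Cyp2c39, known in mouse liver to hydroxylate retinoic acid, was much lower in level and had 5.76, 1.32 and 2.92 CPM against 1.32, 0.425, 0.790 and 0.801 CPM in CDAHFD. Its call (1.51 ± 0.50, edgeR adjusted p = 0.0208) was lost without mouse Advanced_9845 (0.88, 0.143) and without mouse Control_9867 (1.27, 0.0532). The 2 coding sequences are 94.2% identical, so these rows may share reads. RefSeq also holds a longer Cyp2c39 model that spans Cyp2c38 on the other strand. The Cyp2c39 row counted here, at chr19:39510822-39568529, does not overlap Cyp2c38.

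Cyp2s1, best known from epithelia outside the liver, was among the lowest members with a call. It had 0.980, 5.58 and 1.79 CPM in FPC advanced hepatocytes against 0.197, 0.0964, 0.0394 and 0.0429 CPM in controls (4.36 ± 0.64, edgeR adjusted p = 0.000108). CDAHFD values were 1.17, 0.412 and 1.32 CPM against 0, 0.0354, 0.113 and 0.115 CPM (3.39 ± 0.71, edgeR adjusted p = 0.00138). The groups do not overlap, but control values rest on a few counts. In controls of the CDAHFD study it was lower in hepatocyte nuclei than in whole liver, at 0.0657 ± 0.0573 against 0.358 ± 0.0646 CPM (SD, n = 4 each; -2.24 ± 0.57, edgeR adjusted p = 0.00518). The cholangiocyte marker sums rose with disease in the same hepatocyte libraries and in whole liver, as given above. Their part in the Cyp2s1 values was not tested.

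A cluster of Cyp2c genes on the minus strand of chromosome 19 varied widely between mice of the same stage. Cyp2c67, Cyp2c68, Cyp2c69 and Cyp2c40 lie side by side, and Cyp2c70, which makes muricholic acids from other bile acids in mice, lies farther along. Their promoters are shown because all 5 hold the letters CAAAGTCCA, a motif bound by the liver factor Hnf4a, and because all 5 were high in 1 control mouse of the CDAHFD study. They lie at chr19:39648993-39649292, chr19:39741052-39741351, chr19:39886720-39887019, chr19:39812765-39813064 and chr19:40187237-40187536 (GRCm38.p6, minus strand, RefSeq). Capitals mark the motif.

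Cyp2c67: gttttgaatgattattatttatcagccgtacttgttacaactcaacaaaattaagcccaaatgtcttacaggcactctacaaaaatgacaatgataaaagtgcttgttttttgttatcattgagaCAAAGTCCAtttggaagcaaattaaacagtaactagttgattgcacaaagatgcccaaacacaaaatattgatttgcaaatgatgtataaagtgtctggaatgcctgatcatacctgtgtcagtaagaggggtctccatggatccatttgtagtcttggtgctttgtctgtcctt
Cyp2c68: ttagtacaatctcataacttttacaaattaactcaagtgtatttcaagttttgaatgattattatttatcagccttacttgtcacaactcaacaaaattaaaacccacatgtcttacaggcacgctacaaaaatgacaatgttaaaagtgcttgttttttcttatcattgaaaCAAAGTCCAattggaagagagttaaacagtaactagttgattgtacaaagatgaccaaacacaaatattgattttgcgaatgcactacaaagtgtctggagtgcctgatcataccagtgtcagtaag
Cyp2c69: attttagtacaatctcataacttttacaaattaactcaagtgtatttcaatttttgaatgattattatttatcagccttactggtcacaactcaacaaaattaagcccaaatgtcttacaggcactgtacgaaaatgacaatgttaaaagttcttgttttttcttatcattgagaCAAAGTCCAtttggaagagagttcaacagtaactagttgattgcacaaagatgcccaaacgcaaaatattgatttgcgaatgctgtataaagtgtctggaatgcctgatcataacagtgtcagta
Cyp2c40: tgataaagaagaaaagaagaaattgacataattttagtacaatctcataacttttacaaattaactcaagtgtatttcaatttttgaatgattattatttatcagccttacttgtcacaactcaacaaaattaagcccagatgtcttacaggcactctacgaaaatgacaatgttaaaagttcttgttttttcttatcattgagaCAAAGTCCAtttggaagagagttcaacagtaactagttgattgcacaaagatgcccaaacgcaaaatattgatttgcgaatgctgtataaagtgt
Cyp2c70: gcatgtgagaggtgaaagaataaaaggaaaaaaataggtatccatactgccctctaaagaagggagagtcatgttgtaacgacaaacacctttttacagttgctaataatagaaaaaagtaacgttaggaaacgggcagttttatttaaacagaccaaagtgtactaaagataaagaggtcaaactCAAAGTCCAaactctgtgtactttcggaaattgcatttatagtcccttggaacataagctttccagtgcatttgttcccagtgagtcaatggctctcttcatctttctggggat

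RefSeq gave 42 promoter windows of 300 bases for 40 of the 47 members. CAAAGTCCA, searched on both strands, was in 6 of them (14.3%; the sixth belongs to Cyp2c65, which was barely counted), against 156 of all 32851 windows (0.475%). The letters are also part of the repeat that other nuclear receptors bind. The promoters of the cluster are related, with Cyp2c68 and Cyp2c69 91.1% identical, so shared letters are no independent events. TTGCNNAA, a motif of C/EBP factors, was in 31% of member windows and 10.8% of all windows, TTCNNNGAA, a motif of STAT5, in 4.76% and 8.3%, and TATAAA in 50% and 13.6%. A match describes the letters and not binding.

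In CDAHFD controls, hepatocyte library Control_9862 had 1569 CPM of Cyp2c67, where the other 3 controls had 119, 249 and 98.7 CPM. Cyp2c68 stood at 830 CPM against 58.8, 155 and 58.4 CPM, Cyp2c40 at 90.9 against 5.71, 17.1 and 4.85 CPM, Cyp2c69 at 63.2 against 5.32, 11.3 and 4.16 CPM, and Cyp2c70 at 446 against 55.6, 218 and 114 CPM. In whole liver, the library labelled Control_9867 was the high one, with 1338 CPM of Cyp2c67, 709.7 of Cyp2c68 and 422 of Cyp2c70, where that labelled Control_9862 had 115, 60.0 and 56.4 CPM. In other mice Cyp2c70 did not always go with the rest: among CDAHFD advanced mice Cyp2c67, Cyp2c68 and Cyp2c40 were highest in Advanced_9845 (624, 723 and 103 CPM) and Cyp2c70 in Advanced_10104 (144 CPM, against 77.1 CPM in Advanced_9845). All 5 genes show the exchange of animal numbers that the whole transcriptome shows. The coding sequences of Cyp2c67, Cyp2c68 and Cyp2c69 are 96.5% to 97.7% identical, so they may share reads, whereas Cyp2c70 is not in that group of copies.

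**Figure D4:**
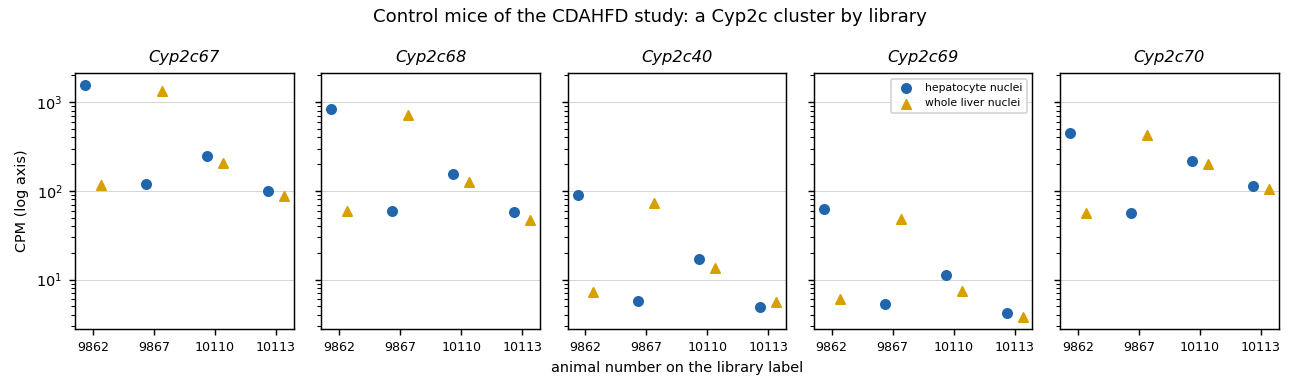
CPM on a log axis of 5 Cyp2c genes in the 4 control mice of the CDAHFD study, by the animal number on the library label; circles are hepatocyte and triangles whole liver nuclei. Hepatocyte library Control_9862 and whole liver library Control_9867 are high in every panel, and in the other 2 mice the fractions lie close together.

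Between stages Cyp2c67, Cyp2c68, Cyp2c69 and Cyp2c40 were not called in advanced disease against control in either study. In CDAHFD the fitted changes were -1.08 ± 0.93 for Cyp2c67, 0.09 ± 0.85 for Cyp2c68, -0.48 ± 0.88 for Cyp2c69 and 0.49 ± 0.88 for Cyp2c40. Without one of the libraries these ran as far as 0.65 for Cyp2c67, 1.71 for Cyp2c68 and 2.21 for Cyp2c40. The sum of Cyp2c67, Cyp2c68 and Cyp2c69 had a fold change of -0.01 ± 0.33 in FPC and -0.56 ± 0.88 in CDAHFD, both not called. Cyp2c70 was called lower in CDAHFD (-1.75 ± 0.67, edgeR adjusted p = 0.0431). That call was lost without mouse Control_9862 (-1.05, 0.123), without mouse Control_10110 (-1.74, 0.0628), without mouse Advanced_9845 (-1.68, 0.105) and without mouse Advanced_9896 (-1.40, 0.135). In FPC, mouse Mild_6825 had 525 CPM of Cyp2c70 where the other mild mice had 84.9, 126 and 143 CPM.

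Some members were close to absent. Cyp2b19 had 2, Cyp2b23 had 1 and Cyp2t4 and Cyp2w1 had 3 counts each in all 44 libraries together, Cyp2j12 had 21, Cyp2c65 had 42 and Cyp2d34 had 62. Cyp2b23 had no count in the 3 FPC advanced hepatocyte libraries, which allows up to 0.0427 CPM over the group, from counting error alone. Cyp2g1, an olfactory enzyme, was called lower in FPC at 0.202 CPM in advanced against 0.602 CPM in control hepatocytes (-2.0 ± 0.77, edgeR adjusted p = 0.0479). A noncoding RNA gene, Gm51443, overlaps its whole length, and the call was lost without mouse Advanced_6826 (-1.66, 0.143), Advanced_6880 (-2.41, 0.0588) or Advanced_6904 (-2.0, 0.11). Cyp2d12 fell in CDAHFD at 0.402 against 1.65 CPM (-2.32 ± 0.93, edgeR adjusted p = 0.0488); without mouse Control_9867 the value was -1.35 (0.189), and the call was also lost without mouse Control_10110 (-2.41, 0.0595), mouse Advanced_9845 (-1.82, 0.123) or mouse Advanced_9896 (-2.07, 0.134).

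Mild disease was compared with control to see which members differed in livers without marked fibrosis. Mild and advanced mice of a study had the same time on diet, so the comparison gives no order in time. In FPC 16 members were called lower beside 11.3% of all genes tested, and Cyp2s1 was the 1 member called higher beside 21.8%. The members' median was -0.54 and that of all genes 0.04. Cyp2c54 had 32.2, 21.2, 50.7 and 45.8 CPM in mild hepatocytes, between the advanced and control groups, with a fold change of -2.37 ± 0.25 (edgeR adjusted p = 2.06e-05). Cyp2u1 (-1.68), Cyp2f2 (-1.52), Cyp2c50 (-1.51), Cyp2c29 (-1.41) and Cyp2c44 (-1.24) were lower too. These 6 and Cyp2d10, Cyp2d22 and Cyp2j9 kept their calls whichever library was left out, but Cyp2d10 (-0.43, 0.0712), Cyp2d22 (-0.40, 0.0901) and Cyp2j9 (-0.32, 0.0832) lost them under total-count scaling. Cyp2a5, Cyp2c55, Cyp2d9, Cyp2e1, Cyp2g1, Cyp2j6, Cyp2r1 and Cyp2s1 did not, and the count of lower members came down to 10 without mouse Control_6952 and to 8 under total-count scaling.

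Cyp2e1 had 1554, 1058, 1590 and 1136 CPM in FPC mild hepatocytes, a change of -0.68 ± 0.23 from control (edgeR adjusted p = 0.0422). The call was lost without mouse Control_6816 (-0.62, 0.0937), Control_6852 (-0.69, 0.0715) or Control_6952 (-0.60, 0.111) and without mouse Mild_6886 (-0.58, 0.109) or Mild_6888 (-0.60, 0.115). In CDAHFD mild hepatocytes it had 2124, 2200, 2396 and 1968 CPM, at the level of the 3 high controls, and was not called (0.14 ± 0.43). Advanced against mild disease in CDAHFD was -1.62 ± 0.48 for Cyp2e1 and not called (edgeR adjusted p = 0.0907), although the groups do not overlap.

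In CDAHFD mild hepatocytes 14 members were called lower beside 26.7% of all genes tested, and 8 higher beside 29.6%, with medians of -0.15 over members and 0.03 over all genes. Under total-count scaling 9 were lower. The 8 higher were Cyp2a4, Cyp2a5, Cyp2a22, Cyp2b9, Cyp2b13, Cyp2c38, Cyp2c39 and Cyp2s1, the same as in advanced disease. Cyp2b9 reached 590.1, 324, 123 and 938 CPM in mild hepatocytes, with a fold change of 7.02 ± 0.87 (edgeR adjusted p = 8.22e-05). Cyp2a22 (3.92 ± 0.49), Cyp2b13 (3.56 ± 0.63), Cyp2a4 (2.91 ± 0.32) and Cyp2a5 (2.37 ± 0.34) were also called. Cyp2c29 was at 13.8, 11.2, 3.33 and 20.2 CPM (-4.85 ± 0.99, edgeR adjusted p = 0.00187), Cyp2u1 at -2.83 ± 0.35, and Cyp2f2 at -1.84 ± 0.20. Cyp2c54 (-1.43 ± 0.47, edgeR adjusted p = 0.0234) was not called without mouse Control_10110 (-0.76, 0.0663), mouse Mild_9853 (-1.29, 0.0645) or mouse Mild_9894 (-1.30, 0.0648).

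Advanced was compared with mild disease within each diet. In FPC 13 members were lower beside 7.49% of all genes tested, and Cyp2a4 and Cyp2s1 were higher beside 12.7%. Cyp2c54 (-3.42 ± 0.30), Cyp2c37 (-3.20 ± 0.74), Cyp2c50 (-3.08 ± 0.28), Cyp2d9 (-2.60 ± 0.30), Cyp2d40 (-1.92 ± 0.30), Cyp2e1 (-1.87 ± 0.27), Cyp2u1 (-1.39 ± 0.31) and Cyp2j5 (-1.13 ± 0.24) were among the lower members. The call of Cyp2c37 was lost without mouse Advanced_6904 (-2.93, 0.0524), and those of Cyp2a4 and Cyp2s1 without mouse Advanced_6880 (1.51, 0.0873 and 1.14, 0.104); Cyp2a4 was also not called without mouse Mild_6886 (2.74, 0.0607). Cyp2d10, Cyp2d22 and Cyp2f2, called at -0.64, -0.53 and -1.08, each lost the call in 3 or more such fits. In CDAHFD Cyp2d9 (-1.64 ± 0.26), Cyp2c54 (-2.74 ± 0.57) and Cyp2d22 (-0.82 ± 0.19) were lower beside 1.52% of all genes, and no member was higher beside 1.30%, with 1 higher at an unadjusted p under 0.05 and 0 by DESeq2. Each of the 3 lower calls was lost in some fit without 1 library; for Cyp2d9 that was mouse Advanced_9896 (-1.52, 0.0663).

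Differences between the diets were tested as CDAHFD change minus FPC change in hepatocytes. For advanced disease 2 members were higher beside 4.50% of all genes tested and none was lower beside 7.36%, with 3 lower at an unadjusted p under 0.05 and 0 by DESeq2. The higher ones were Cyp2a5, with a difference of 2.96 ± 0.53 (edgeR adjusted p = 0.00255), called in every fit that left out a library, and Cyp2c50, with 2.10 ± 0.64 (0.0393), whose value was 1.34 (0.149) without CDAHFD mouse Advanced_9845 and which lost its call in most of the other fits. In advanced disease the differences of Cyp2b9 (5.50 ± 2.04, 0.0833) and Cyp2b13 (2.59 ± 1.08, 0.121) were not called. For mild disease 8 members were higher beside 5.59% of all genes and 1 was lower beside 6.64%. Cyp2b9 had the greatest fitted difference (7.06 ± 1.94, 0.0265), which was 5.02 (0.0753) without FPC mouse Control_6816. Cyp2a4 (3.94 ± 0.80, 0.00602) and Cyp2a5 (3.40 ± 0.50, 0.000632) were called in every fit that left out a library. Cyp2c29 had fallen further in CDAHFD (-3.36 ± 1.01, 0.0377), and by -2.33 (0.102) without CDAHFD mouse Control_10113.

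Whole liver nuclei gave the same comparisons in the same mice. In FPC 24 of 38 tested members were lower in advanced disease beside 28.0% of 14129 genes, and 3 were higher beside 31.3%. In CDAHFD 22 of 37 were lower beside 25.9% of 14098 genes, and 7 were higher beside 29.7%. All 20 lower calls of FPC hepatocytes and all 19 of CDAHFD hepatocytes were also lower calls in whole liver, as were 92.3% and 73.7% of the lower calls over all genes. Of the higher calls in hepatocytes, all 3 in FPC and 7 of 8 in CDAHFD were higher calls in whole liver too, beside 89.8% and 71.7% over all genes. Cyp2a5 was opposite between the diets there, at -1.16 ± 0.35 in FPC and 0.83 ± 0.32 in CDAHFD (edgeR adjusted p = 0.014 and 0.0433), with a difference of 1.99 ± 0.51 (0.0296) that was 1.58 (0.0946) without CDAHFD mouse Advanced_9896. The CDAHFD change of Cyp2a5 was 0.42 (0.255) without Advanced_9896 and lost its call without Advanced_10104 (0.88, 0.0749), Control_9867 (0.66, 0.0857), Control_10110 (0.84, 0.0728) or Control_10113 (0.91, 0.0523), and the FPC change was -0.71 (0.116) under total-count scaling. The diet difference was the 1 higher beside 1.70% of all genes, and none was lower beside 2.97%, with 3 lower at an unadjusted p under 0.05 and 0 by DESeq2. For mild disease in whole liver, 4 differences were higher beside 2.69% of all genes, among them Cyp2a5 (2.47 ± 0.48, 0.00522), and 2 were lower beside 2.32%. In whole liver of mice with mild disease, 22 FPC members were lower beside 18.2% of all genes and 1 higher beside 25.0%, while 18 CDAHFD members were lower beside 24.5% and 8 higher beside 27.7%. Advanced against mild disease in whole liver gave 16 lower beside 8.98% and 1 higher beside 13.3% of all genes in FPC. The higher one was Cyp2a4 (2.50 ± 0.60, 0.0124), which was 1.35 (0.0609) without mouse Advanced_6880. In CDAHFD Cyp2c54 (-3.0 ± 0.49) and Cyp2d9 (-1.65 ± 0.26) were lower beside 1.05%, and no member was higher beside 0.830%, with 1 higher at an unadjusted p under 0.05 and 1 by DESeq2. Cyp2c54 lost that call without Advanced_9845 (-2.94, 0.0641), Advanced_9896 (-2.90, 0.0909) or Advanced_10104 (-3.18, 0.054).

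Hepatocyte nuclei were also set against whole liver nuclei of the same mice. All counts in this paragraph come from fits without the mouse as a block, which leave out the pairing of the fractions. With the pairing more members were called, in controls too, as the next paragraph gives. In controls no FPC member was higher beside 1.35% of 14333 genes or lower beside 16.2% (4 and 1 at an unadjusted p under 0.05, and 0 and 1 by DESeq2). In CDAHFD controls 2 members were higher beside 14.6% and 1 lower beside 16.4% of 14315 genes. In FPC 5 members were higher in mild disease beside 7.19% of genes and 5 in advanced disease beside 4.83%. In CDAHFD 14 were higher in mild disease beside 23.1% and 13 in advanced disease beside 20.1%. No member was called lower in mild or advanced disease, beside 19.0% and 17.7% of genes in FPC and 27.6% and 23.0% in CDAHFD. At an unadjusted p under 0.05, 1 member was lower in mild disease of each study and 0 in advanced disease, and DESeq2 called 1 lower in CDAHFD mild disease and 0 in the others. The medians of the members ran 0.25, 0.46 and 0.56 in FPC control, mild and advanced mice and 0.33, 0.81 and 0.92 in CDAHFD, beside all-gene medians between 0.04 and 0.20.

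Animal numbers pair the fractions, and with the mouse as a block more members were called. In FPC 16 of 40 tested members were then higher in controls, 30 in mild and 28 in advanced disease, beside 21.4%, 27.6% and 22.2% of all genes under the same fit. Lower were 1, 1 and 0 members, beside 18.8%, 22.8% and 22.6%. In CDAHFD, with the 2 whole liver control libraries exchanged as their profiles point to, 20, 32 and 32 of 37 tested members were higher in control, mild and advanced mice, beside 38.6%, 33.8% and 32.3%, and 2, 1 and 0 were lower, beside 18.4%, 33.0% and 29.1%. With the CDAHFD labels as given, 6, 20 and 20 were higher, beside 25.9%, 28.4% and 25.8%, and 1, 0 and 0 were lower, beside 17.3%, 30.1% and 25.6%. The fold changes of single members that follow come from the fits without the mouse as a block. Cyp2j5 had 772 ± 166.5 CPM in hepatocyte nuclei against 405 ± 81.5 CPM in whole liver in FPC advanced mice (SD, n = 3 each; 1.02 ± 0.21, edgeR adjusted p = 0.000973). Cyp2d26 (1.29 ± 0.28), Cyp2d9 (1.27 ± 0.28), Cyp2a12 (1.33 ± 0.24) and Cyp2a4 (1.27 ± 0.32) were among those higher in hepatocyte nuclei in CDAHFD advanced mice. Beside these values, the 8 endothelial markers summed to 148 CPM in hepatocyte against 801 CPM in whole liver libraries of CDAHFD advanced mice.

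**Figure D5:**
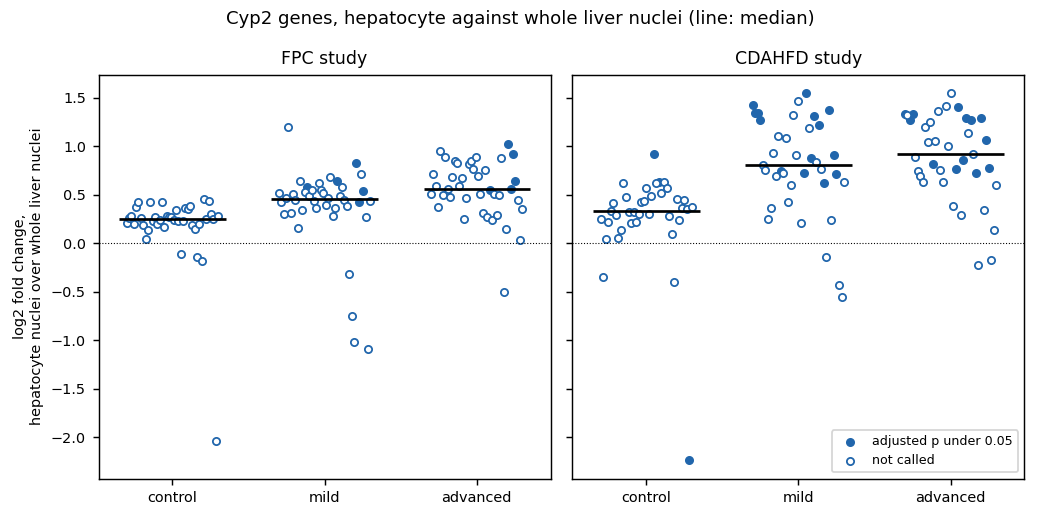
Log2 fold change of each tested member, hepatocyte over whole liver nuclei, by stage in each study; points are members, filled where the adjusted p is under 0.05, and lines are medians. The medians lie at 0.25, 0.46 and 0.56 in FPC and at 0.33, 0.81 and 0.92 in CDAHFD, and the lowest filled point is Cyp2s1 at -2.24 in CDAHFD controls.

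Grouped by what is known of them, the 5 female-biased members had medians of 0.35 in FPC and 2.76 in CDAHFD advanced hepatocytes, with 1 rising in FPC (Cyp2a4), beside 26.5% of all genes, and 3 in CDAHFD (Cyp2a4, Cyp2b9 and Cyp2b13), beside 30.3%, and none called lower. Cyp2c40 and Cyp2c69 were not called. Both male-biased members, Cyp2d9 and Cyp2u1, fell in each study (medians -3.22 and -3.51), beside 20.4% and 29.2% of all genes. Of 8 growth hormone signalling genes, 2 were higher and 2 lower in FPC, beside 26.5% and 20.4% of all genes, and 1 was higher and 3 lower in CDAHFD, beside 30.3% and 29.2%, so the list's calls were near the shares over all genes. Cux2, a factor found in female mouse liver, rose by 4.74 ± 0.73 in FPC and 1.93 ± 0.39 in CDAHFD, and the growth hormone receptor gene Ghr was at -1.97 ± 0.33 and -2.60 ± 0.22. Stat5b was lower in both (-0.55 ± 0.17 and -0.94 ± 0.13). Bcl6, a repressor in male liver, was lower in CDAHFD (-2.99 ± 0.42), and Socs2, a feedback target of Stat5, was higher in FPC (3.25 ± 0.83).

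Of the 6 CAR-responsive members, 4 of 6 tested fell in FPC, beside 20.4% of all genes, and 4 of 5 in CDAHFD, beside 29.2%. They were Cyp2c29, Cyp2c37, Cyp2c50 and Cyp2c54 each time. These genes are also on the pericentral list, so the lists are not independent. Nr1i3, the gene of CAR itself, was at -1.72 ± 0.32 in FPC and -0.69 ± 0.23 in CDAHFD advanced hepatocytes (edgeR adjusted p = 0.000777 and 0.0207). Among the 12 receptors and liver factors, 8 were lower in FPC, beside 20.4% of all genes, and 5 in CDAHFD, beside 29.2%; none was higher in FPC (26.5%). Hnf4a was at -0.81 ± 0.16 and -0.74 ± 0.19. Cebpb, an inflammation-responsive factor, was the 1 that rose in CDAHFD (1.79 ± 0.21), beside 30.3% of all genes. The medians of the list, -0.82 and -0.62, compare with 0.00 and -0.00 over all genes.

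Of 14 genes for electron transfer and heme, 8 were lower and 1 higher in FPC, beside 20.4% and 26.5% of all genes, and 6 were lower and 2 higher in CDAHFD, beside 29.2% and 30.3%. The electron carrier Cyb5a was at -1.52 ± 0.20 and -1.18 ± 0.33, and Fech, the last enzyme of heme synthesis, at -0.94 ± 0.15 and -0.56 ± 0.13. Hmox1, which breaks heme down, was higher in both (0.89 ± 0.32 and 2.87 ± 0.33), and Por was higher in CDAHFD (1.64 ± 0.43). Of 21 tested genes of P450 families 1, 3 and 4, 9 were lower and 4 higher in FPC, beside 20.4% and 26.5% of all genes. In CDAHFD 6 were lower and 5 higher, beside 29.2% and 30.3%, which is near or under the shares over all genes. Cyp1a2, pericentral like Cyp2e1, was at -3.12 ± 0.36 and -2.18 ± 0.51, and Cyp4a14, a target of PPAR alpha, at 3.50 ± 1.11 and 3.16 ± 0.86.

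The authors' deposited table gives its own hepatocyte comparisons. For advanced against control the calls at 0.05 were the same for 35 of the 37 members in both analyses in FPC and for 35 of 35 in CDAHFD. The FPC exceptions were Cyp2a5, lower in the authors' deposited table, and Cyp2g1, lower here. For FPC mild against control, 35 of 37 members had the same call in the authors' deposited table. The exceptions were Cyp2c29 and Cyp2e1, lower here and not called there. For FPC advanced against mild the calls were the same for 35 of 37 as well. The exceptions were Cyp2d10 and Cyp2d22, again lower only here. Calls were the same for 30 of 35 in CDAHFD mild against control and 31 of 35 in CDAHFD advanced against mild. In CDAHFD mild against control the authors' deposited table calls Cyp2a12 and Cyp2d26 higher and Cyp2c50 lower, which were not called here, and does not call Cyp2c70 and Cyp2d11, which were lower here. In CDAHFD advanced against mild the authors' deposited table calls Cyp2c50, Cyp2d12, Cyp2d26 and Cyp2e1 lower, which were not called here; for Cyp2e1 it gives -1.60 with an adjusted p of 0.00245.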

How the data were processed

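Nuclear RNA was sequenced as 50-base pairs from stranded libraries made with no poly-A selection step, per the labels' protocols. The submitters' processing notes name mm10, DESeq2 1.24.0 and STAR 2.4.2a; the read counter and its strand setting are not given in the sources used here. The authors deposited raw whole-number counts per gene and library. The authors also deposited log2 fold changes and adjusted p-values of hepatocyte comparisons, per the file headers. In 94.7% of the 13147 rows of that table the counted length equals gene length, so introns were counted with exons; per-kilobase levels use that length. Symbols came from the authors' table for 40 members and from a RefSeq table for 7. The 79 rows without a symbol stayed in the fits.

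All 20105 rows were fitted with edgeR 4.0.16 (R 4.3.3): trimmed-mean scaling, its low-count filter, robust quasi-likelihood F-tests and Benjamini-Hochberg adjustment over all genes tested, with a threshold of 0.05. In the text, a second number beside a log2 value in parentheses is the edgeR adjusted p. Stage comparisons used the 11 libraries of a fraction and study, fraction comparisons 22 libraries of a study and diet differences 22 libraries of a fraction. SE is the absolute log2 fold change over the root of F. The labels call the mice separate animals, and no batch is named. Animal numbers come from the labels and pair the fractions of a mouse; deviations from group means correlated best with the own number in 20 of 22 hepatocyte libraries (0.17 to 0.89). Alternatives were relative log expression scaling, no filter, DESeq2 1.42.0, the 2 groups alone, each library left out, and the mouse as a block; summed copies, total-count scaling and exchanged control libraries were added after the data were seen. Copies were joined at 95% identity of coding sequences, since no protein table was at hand. The fits were tested on simulated counts. Floors for a count of 0 use 3 counts per group and cover counting error only.

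Values per sample are given for the 10 called members with the greatest absolute fold change in advanced hepatocytes of each diet, the 5 most abundant, and a fixed list of well-known members; Cyp2c39, Cyp2c69, Cyp2a12, Cyp2d12 and Cyp2g1, which the rule did not name, were added after their values were seen. Members and lists were chosen with earlier results of these data known.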

Additional observations from a re-analysis of the deposited data

Results flagged for a closer look

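A mouse far from the others of its group, by Dixon's criterion, was found in 25 of the 180 groups of 4 libraries examined. The nominal rate of the criterion, about 1 in 20, holds for independent and normally spread values. Here CPM was used without logs, and groups share mice across fractions and genes with close copies. The count can therefore not be set against that rate. In CDAHFD control hepatocytes these were mouse Control_9862 with 1569 CPM of Cyp2c67, 830 of Cyp2c68, 90.9 of Cyp2c40 and, at the low end, 1.67 of Cyp2a4, mouse Control_10113 with 668 CPM of Cyp2c29, and mouse Control_10110 with 170 CPM of Cyp2c54 and 126 of Cyp2c50. In CDAHFD control whole liver they were library Control_9867 with 1338 CPM of Cyp2c67, 710 of Cyp2c68 and 72.2 of Cyp2c40, mouse Control_10113 with 622 CPM of Cyp2c29 and mouse Control_10110 with 148 CPM of Cyp2c54. In FPC mild hepatocytes mouse Mild_6825 was low in Cyp2c44 (104 CPM) and high in Cyp2c70 (525 CPM). In FPC mild whole liver it was low in Cyp2c44 (82.2 CPM) and Cyp2u1 (12.9 CPM) and high in Cyp2c70 (448 CPM). Mouse Mild_6888 was low in Cyp2r1 there (22.1 CPM). FPC mouse Control_6816 had 12.5 CPM of Cyp2b10 in hepatocytes and 10.7 in whole liver. In CDAHFD mild hepatocytes mouse Mild_9894 had 96.4 CPM of Cyp2c40 and mouse Mild_10102 had 102 CPM of Cyp2f2. In CDAHFD mild whole liver mouse Mild_9894 had 48.4 CPM of Cyp2c40, and mouse Mild_10102 had 73.8 CPM of Cyp2f2 and, at the low end, 1230 of Cyp2e1.

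The change against control differed between the diets in 18 tests, given as CDAHFD minus FPC (log2, edgeR adjusted p under 0.05). In advanced hepatocytes the differences were 2.96 for Cyp2a5 and 2.10 for Cyp2c50. In mild hepatocytes they were 7.06 for Cyp2b9, 3.94 for Cyp2a4, 3.73 for Cyp2b13, 3.40 for Cyp2a5, 2.85 for Cyp2a22, 2.19 for Cyp2c55, 0.92 for Cyp2a12, 0.89 for Cyp2d26 and -3.36 for Cyp2c29. In whole liver the difference was 1.99 for Cyp2a5 in advanced disease, and in mild disease 6.82 for Cyp2b9, 3.01 for Cyp2b13, 2.51 for Cyp2a4, 2.47 for Cyp2a5, -1.55 for Cyp2d9 and -1.50 for Cyp2d40. Cyp2a5 in hepatocytes of both stages and in mild whole liver, and Cyp2a4 in mild hepatocytes, were called in every fit that left out a library; the others lost the call in at least 1 such fit.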

How the results depend on the processing

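Counts below are members called; ranges are those over fits that leave out each library in turn, and the cause of each shift was not tested. In hepatocytes, FPC advanced against control gave 3 higher (1 to 3; 1 with copies summed), mild against control 1 higher (0 to 1) and 16 lower (10 to 13; 8 under total-count scaling), and advanced against mild 2 higher (0 to 2; 1 with copies summed). In CDAHFD, mild against control gave 14 lower (9 under total-count scaling) and advanced against mild 3 lower (0 to 3; 6 by DESeq2). In whole liver, FPC advanced against control gave 3 higher (1 to 3; 1 with copies summed and 1 with the 2 groups alone), mild against control 1 higher (0 to 1; 0 with the 2 groups alone) and advanced against mild 1 higher (0 to 1; 0 with copies summed). CDAHFD advanced against mild in whole liver gave 0 higher (0 to 1; 1 by DESeq2) and 2 lower (1 to 3; 1 with copies summed, 8 by DESeq2, 5 with the 2 groups alone).

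Hepatocyte against whole liver in FPC controls gave 0 higher (0 to 1; 1 with no filter; 16 with the replicate block) and 0 lower (1 by DESeq2; 1 with the block). FPC mild gave 5 higher (3 to 6; 30 with the block) and 0 lower (1 with the block), and FPC advanced 5 higher (28 with the block). CDAHFD controls gave 2 higher (1 to 6; 0 with relative log expression scaling, 1 by DESeq2, 6 with the block, 20 with the block and exchanged libraries) and 1 lower (2 with the block and exchanged libraries). CDAHFD mild gave 14 higher (32 with the block and exchanged libraries) and 0 lower (1 with relative log expression scaling, 1 by DESeq2, 1 with the block and exchanged libraries), and CDAHFD advanced 13 higher (20 with the block, 32 with exchanged libraries).

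The diet difference in advanced hepatocytes gave 2 higher (1 to 4; 1 with copies summed, 1 with no filter, 5 by DESeq2) and 0 lower (0 to 1), and in mild hepatocytes 8 higher (3 to 8; 5 with no filter) and 1 lower (0 to 3; 0 with no filter). In advanced whole liver it gave 1 higher (0 to 2; 0 with copies summed, 3 by DESeq2) and 0 lower (0 to 1), and in mild whole liver 4 higher (1 to 4) and 2 lower (0 to 5; 1 with relative log expression scaling, 1 with no filter, 4 by DESeq2).

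Members whose direction turned were not called. For advanced against control in FPC hepatocytes, leaving out a library moved Cyp2b9 (0.35) between -1.47 and 2.39, Cyp2b10 (0.42) between -1.63 and 2.81, Cyp2b13 (0.24) between -0.51 and 1.03, Cyp2c38 (0.17) between -0.20 and 0.68 and Cyp2c70 (-0.12) between -0.78 and 0.21, with 0.32 under total-count scaling. In CDAHFD it moved Cyp2c67 (-1.08) between -1.90 and 0.65, Cyp2c68 (0.09) between -0.62 and 1.71 and Cyp2c40 (0.49) between -0.22 and 2.21. Members at a few counts per library, such as Cyp2s1 in controls, are limited by depth.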
